A study of Mus musculus with 6 samples.

Results

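The genes described here are 36 markers of the small vessels of the brain, 28 of endothelial cells, which line the vessels, and 8 of mural cells, the pericytes and smooth muscle cells around them. They were taken by gene symbol from the 35148 genes of the deposited table, and all 36 were among the 20865 genes with enough counts to be tested. The samples are RNA of the mouse PVH, the hypothalamic paraventricular nucleus, whose neurons govern appetite, the stress axis and water balance, and all mice carried the Ruvbl2fl/fl genotype. In 3 libraries the animals had received AAV2-Cre-GFP, an adeno-associated virus that carries Cre recombinase and a green fluorescent protein, and in 3 they had received AAV2-GFP, which carries the fluorescent protein alone. Both viruses were injected into the PVH and tissue was taken 8 weeks later, so the floxed alleles, the injection and the GFP are shared by both groups. Cre deletes the loxP-flanked part of Ruvbl2, an ATPase of chromatin remodelling and chaperone complexes, and the series description names synaptic plasticity as its question. The labels name neither the promoter that drove Cre nor the cells it reached, and the RNA was of the whole dissected tissue. Nor do they tie each library to its own animal, and p-values therefore reflect only how these libraries scatter.

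Brain endothelial cells differ from those of most organs: tight junctions seal the gaps between them, few vesicles cross them, and dedicated transporters carry glucose, amino acids, lipids and hormones inward while pumps return drugs to the blood. This state, the blood-brain barrier, is induced by Wnt ligands of the surrounding neural cells and is kept up by pericytes, which endothelial PDGF-B recruits through its receptor PDGFRβ. In the PVH the capillary bed is dense, and its neurons sample and respond to hormones carried by the blood.

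Ruvbl2 is the check of the labels, and it was not lower where Cre was labelled. Its level was 9.53, 9.10 and 9.51 FPKM (fragments scaled by gene length and library total) in the libraries labelled AAV2-Cre-GFP 1 to 3, against 9.90, 7.36 and 8.72 FPKM in those labelled AAV2-GFP 1 to 3. The groups overlapped, and on the log2 scale they differed by 0.077 ± 0.11 (SE; 95% interval -0.18 to 0.33; edgeR adjusted p = 0.773). A two-sided exact permutation test gave p = 0.5, where 3 against 3 cannot go below 0.1. The count covers the whole gene on chromosome 7 and does not separate floxed from retained exons. The groups are therefore called Cre-labelled and GFP-labelled, and every direction compares libraries by their labels.

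Several libraries also held transcripts of other organs, which bears on every vascular gene that such an organ expresses. Summed over 15 kidney tubule genes, the level was 49.9, 698 and 758 CPM (counts relative to the library total) in Cre-labelled libraries 1 to 3, against 76.9, 50.5 and 58.8 CPM in GFP-labelled libraries 1 to 3. The sum of 10 skeletal muscle genes was 11.6, 24.2 and 213 CPM in Cre-labelled libraries and 9.88, 10.4 and 12.4 CPM in GFP-labelled ones. Testis genes reached 531 CPM in GFP-labelled library 1 and were between 0.310 and 2.05 CPM in the other 5. Of these libraries, only Cre-labelled library 1 and GFP-labelled libraries 2 and 3 were low in all 3 lists. A ribosomal RNA model, CT010467, whose reads poly(A) selection should remove, took 17633, 13492 and 7301 CPM in Cre-labelled libraries, against 2219, 2201 and 2072 CPM in GFP-labelled ones. Total counts ran from 41890769 to 54702785, and the common biological coefficient of variation was 27.1%. Markers of the PVH were present in every library but uneven, Oxt for one at 56.2, 137 and 428 FPKM in Cre-labelled libraries, against 184, 568 and 587 FPKM in GFP-labelled ones.

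In edgeR's quasi-likelihood test none of the 36 members had an adjusted p under 0.05, where 2 of 20865 genes (0.00959%) did. The smallest adjusted p of a member was 0.136 and the largest 0.975. At an unadjusted p under 0.05, 8 members were higher in the Cre-labelled libraries and 0 lower, against 8.11% of all tested genes higher and 9.11% lower. The 8 were the endothelial Slc2a1, Ly6a, Mfsd2a, Ly6c1, Abcg2, Ocln and Pecam1 and the smooth muscle gene Tagln. DESeq2 placed 3 members past the threshold, Slc2a1, Mfsd2a and Ly6c1, all higher, where it called 2.86% of genes higher and 4.22% lower. These shares are of all 20865 genes, of which 4561 got no adjusted p from DESeq2 and could not be called. A limma fit of log2 FPKM, which covered the 24 endothelial and 8 mural members with a mean of at least 1 FPKM, placed 0.

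In 7 endothelial members every Cre-labelled library was above every GFP-labelled one, and in 0 members was the reverse true, against 14.1% and 8.80% of all tested genes. These 7 were Slc2a1, Mfsd2a, Ly6c1, Ocln, Tjp1, Itm2a and Sox18, and no mural gene was among them. The log2 difference was above 0 for 20 of 28 endothelial and 7 of 8 mural members, against 49.0% of all genes. Its median was 0.076 over the endothelial members and 0.30 over the mural members, with -0.0058 over all tested genes (quartiles -0.18 and 0.19). Libraries of a group scattered by an SD of 0.18 in the mean log2 level of the endothelial members and 0.23 for the mural members. With ribosomal and mitochondrial genes removed from the library totals the medians were 0.089 and 0.31. Summed endothelial FPKM was 309, 332 and 362 in Cre-labelled libraries, against 277, 281 and 318 in GFP-labelled ones. Bsg, which many cell types make, gave about as much of this sum as the other 27 members together. Without Bsg the sum was 159, 184 and 201 FPKM in Cre-labelled libraries and 138, 145 and 163 FPKM in GFP-labelled ones. With or without Bsg, Cre-labelled library 1 lay below GFP-labelled library 3. Summed mural FPKM was 46.7, 54.8 and 56.5 in Cre-labelled libraries and 45.2, 44.6 and 50.0 in GFP-labelled ones. In bulk RNA, more or fewer vessel cells and more or less RNA per cell cannot be told apart.

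The medians changed with the libraries kept, in either group. Without GFP-labelled library 1 they were 0.030 over the endothelial and 0.15 over the mural members. Without GFP-labelled library 2 they were 0.079 and 0.26, and without GFP-labelled library 3 they were 0.22 and 0.46. Without Cre-labelled library 1 they were 0.20 and 0.41. Without Cre-labelled library 2 they were 0.13 over the endothelial and 0.18 over the mural members. Without Cre-labelled library 3 they were 0.058 and 0.15. Cre-labelled libraries 2 and 3 held the kidney transcripts, while Cre-labelled library 1 had the highest CT010467 and the lowest Oxt level of its group. With Cre-labelled library 1 alone set against the 3 GFP-labelled libraries, an alternative chosen after the data were seen, 12 of 28 endothelial and 3 of 8 mural members were above 0, and the medians were -0.070 and -0.037. Without all 3 libraries that held transcripts of other organs, which leaves 1 Cre-labelled library, assumed to vary like the others, against 2 GFP-labelled ones, the medians were -0.15 and -0.088. That fit called Vwf (log2 difference -0.83, edgeR adjusted p = 0.0188) and Eng (-0.62, edgeR adjusted p = 0.0494) lower, in a comparison that called 1.24% of its genes higher and 3.57% lower. What part kidney or muscle vessels had in the pooled values was not tested.

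**Figure D1:**
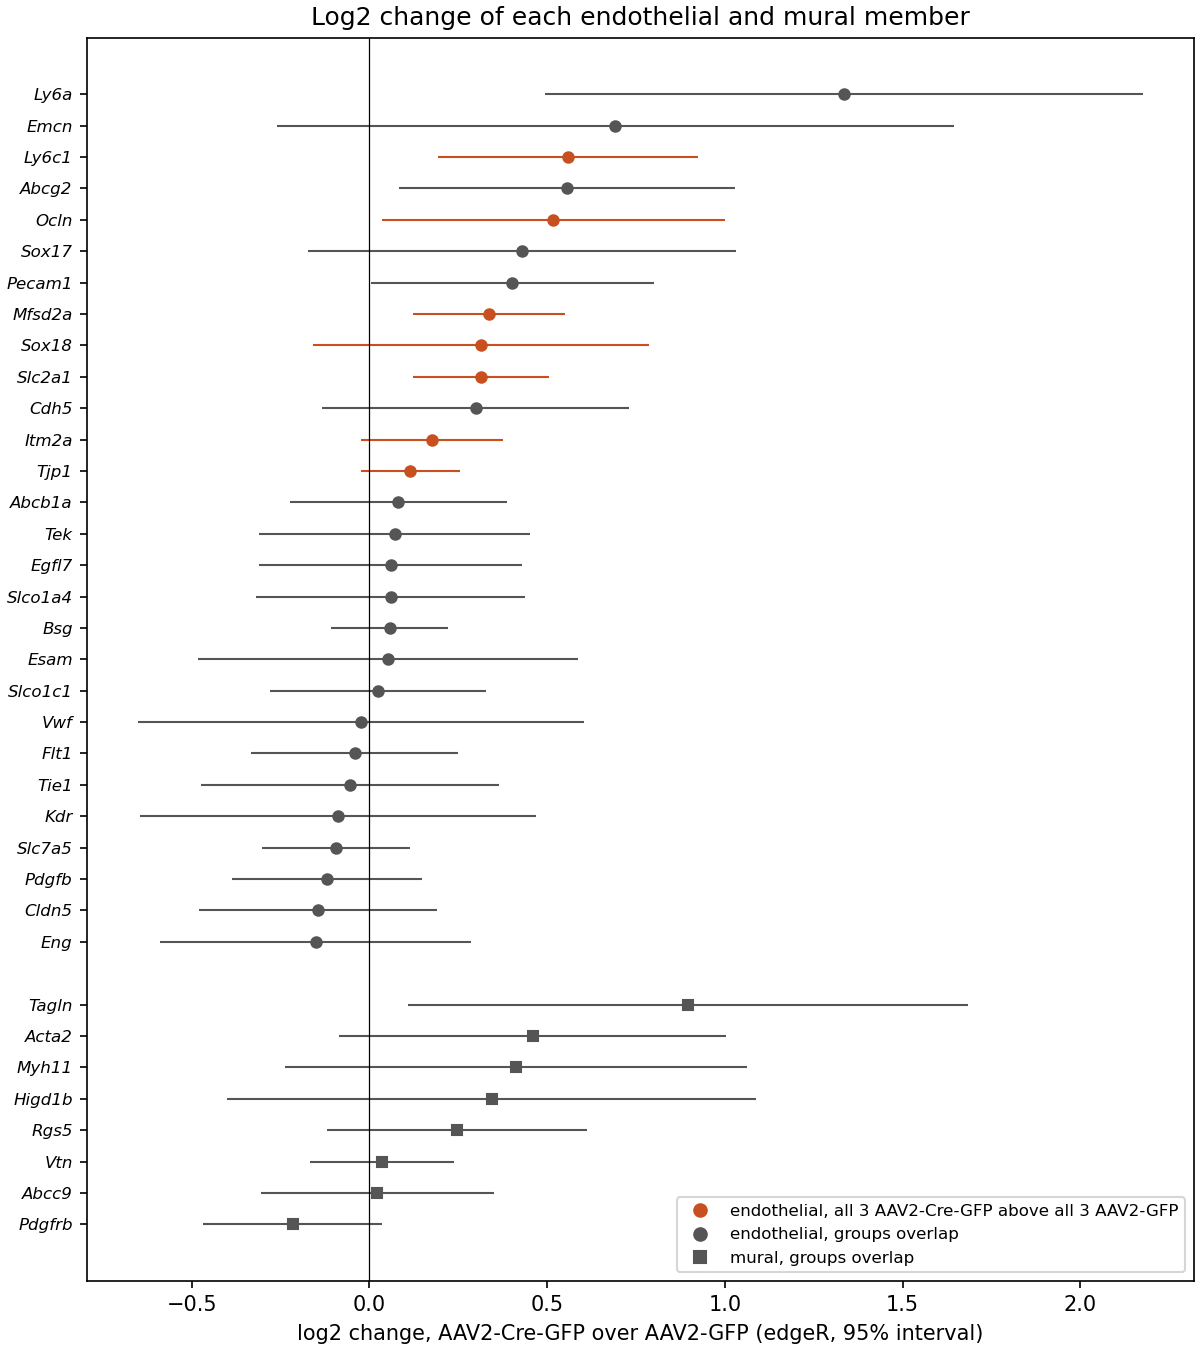
Log2 differences of the 36 members, Cre-labelled over GFP-labelled, from edgeR with 95% intervals (n = 3 libraries a group), grouped by role. Ly6a has the highest point at 1.34 ± 0.36 (SE), Pdgfrb the lowest at -0.22 ± 0.11 (SE), and no member passed the adjusted threshold.

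The 6 junction genes seal and hold the endothelium, and 5 of them had a log2 difference above 0 with a median of 0.21. Cldn5, the claudin that forms most of the tight junction strand of brain capillaries, was the exception. It stood at 6.17, 6.70 and 6.26 FPKM in Cre-labelled libraries, against 5.86, 7.07 and 7.67 FPKM in GFP-labelled ones, and its log2 difference was -0.14 ± 0.14 (SE; edgeR adjusted p = 0.658). The GFP-labelled values lay on both sides of the Cre-labelled ones.

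Ocln, a membrane protein of the same junctions, was higher, at 2.56, 2.00 and 2.51 FPKM in Cre-labelled libraries and 1.77, 1.16 and 1.87 FPKM in GFP-labelled ones. The groups did not overlap, yet the nearest pair, Cre-labelled library 2 and GFP-labelled library 3, differed little, and the log2 difference was 0.52 ± 0.21 (SE; edgeR adjusted p = 0.262). Leaving out 1 library moved it between 0.33, without GFP-labelled library 2, and 0.65, without GFP-labelled library 3. Tjp1, which encodes the scaffold ZO-1 that ties claudins and occludin to actin and is made by many cell types, had 13.3, 12.6 and 14.2 FPKM in Cre-labelled libraries, against 12.4, 11.6 and 11.97 FPKM in GFP-labelled ones. Here too the groups were apart, by a log2 difference of 0.11 ± 0.060 (SE; edgeR adjusted p = 0.381).

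Among adhesion proteins, Pecam1, which joins endothelial cells to each other and to leukocytes, had 2.37, 3.70 and 3.43 FPKM in Cre-labelled libraries, against 2.18, 2.34 and 2.49 FPKM in GFP-labelled ones. Libraries 2 and 3 of the Cre-labelled group stood above all others, and library 1 lay inside the GFP-labelled range. Cdh5, the VE-cadherin of adherens junctions, likewise had Cre-labelled libraries 2 and 3 above the rest, at 2.10, 2.71 and 3.27 FPKM with Cre labels and 1.97, 2.03 and 2.41 FPKM with GFP labels. Esam, an adhesion molecule of endothelial cells and platelets, averaged 2.86 ± 0.546 FPKM in Cre-labelled libraries and 2.70 ± 0.702 FPKM in GFP-labelled ones (SD, n = 3 each).

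Transporters and the chaperone Bsg made up 8 members, of which 7 had a log2 difference above 0 with a median of 0.070. Slc2a1, which encodes GLUT1, the transporter that carries glucose across the barrier and into astrocytes, had the smallest adjusted p of the 36. It stood at 31.8, 30.9 and 33.8 FPKM in Cre-labelled libraries and at 23.0, 24.6 and 28.04 FPKM in GFP-labelled ones. All 3 Cre-labelled values were above all GFP-labelled values, and library 2 was the lowest of its group. The difference was 1.28-fold in mean FPKM and 0.31 ± 0.083 (SE) on the log2 scale, with an adjusted p of 0.136 in edgeR and 0.00856 in DESeq2.

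Mfsd2a, the lipid transporter that carries lysophosphatidylcholine with omega-3 fatty acids into the brain and keeps vesicle transport low, was also apart between the groups. Its level was 9.28, 9.54 and 9.47 FPKM in Cre-labelled libraries, against 6.86, 7.03 and 7.91 FPKM in GFP-labelled ones. The Cre-labelled libraries spread by an SD of 0.133 FPKM, with library 1 the lowest of them and still above every GFP-labelled library. Its log2 difference was 0.34 ± 0.092 (SE), with an adjusted p of 0.144 in edgeR and 0.0427 in DESeq2. Leaving out each library in turn kept the log2 difference between 0.29 and 0.41, and that of Slc2a1 between 0.25 and 0.40. Without the 3 libraries with transcripts of other organs they were 0.26 and 0.22.

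Slc2a1 (ENSMUSG00000028645) is found on chromosome 4 (plus strand) from 119108711 to 119137983 and Mfsd2a (ENSMUSG00000028655) on the same chromosome (minus strand) from 122946850 to 122961188 (GRCm38, as in the deposited table). Both promoters are shown because these genes, with Ly6c1 below, are the 3 that DESeq2 placed past the threshold. Each is the 250 bases before the start of the RefSeq transcript (GRCm38.p6), 5′ to 3′ on the gene's strand. Capitals mark matches, on either strand, to any of 6 motifs. Of the general promoter elements these were the TATA box, spelled TATAAA, the GC box, spelled GGGCGG, and the CCAAT box, named for its letters. Of signalling elements they were the TCF/LEF site of Wnt signalling, with the letters CTTTGAT, the STAT site, with TTCNNNGAA, and the core of the interferon-stimulated response element.
Slc2a1, chr4:119108495-119108744, plus strand: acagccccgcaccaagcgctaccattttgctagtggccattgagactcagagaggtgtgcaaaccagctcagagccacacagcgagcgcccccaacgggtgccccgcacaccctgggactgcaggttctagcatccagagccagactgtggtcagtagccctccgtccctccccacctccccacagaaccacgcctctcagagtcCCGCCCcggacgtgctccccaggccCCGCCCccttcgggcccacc
Mfsd2a, chr4:122961189-122961438, minus strand: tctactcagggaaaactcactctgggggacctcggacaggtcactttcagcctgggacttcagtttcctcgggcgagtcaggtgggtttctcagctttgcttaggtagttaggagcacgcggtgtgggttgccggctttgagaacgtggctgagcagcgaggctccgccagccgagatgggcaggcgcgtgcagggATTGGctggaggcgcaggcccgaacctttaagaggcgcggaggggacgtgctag
The Slc2a1 window held 2 GC boxes on the opposite strand, from 45 to 40 and from 20 to 15 bases before the start, a motif that 32.7% of 32851 RefSeq promoters hold. The Mfsd2a window held 1 CCAAT box on the opposite strand, from 54 to 50 bases before the start, as 33.8% of promoters do. The letters CTTTGAT, which 3.21% of promoters hold, were in neither window.

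Abcg2, a drug efflux pump of the luminal membrane, had 1.29, 1.76 and 2.18 FPKM in Cre-labelled libraries, against 1.13, 1.02 and 1.32 FPKM in GFP-labelled ones. Cre-labelled libraries 2 and 3 were above all GFP-labelled ones and library 1 was not, and the log2 difference was 0.56 ± 0.20 (SE; edgeR adjusted p = 0.228). It was 0.090 (edgeR adjusted p = 0.881) without the 3 libraries with transcripts of other organs and 0.12 with Cre-labelled library 1 alone. Abcg2 is also a transporter of the kidney tubule in mice, whose marker list was high in the same libraries. The other pump, Abcb1a, the mouse P-glycoprotein of brain capillaries, had 4.29, 5.02 and 5.96 FPKM in Cre-labelled libraries and 4.26, 4.86 and 4.96 FPKM in GFP-labelled ones. Of the 31-base words of Abcb1a transcripts, 21.7% also occur in its paralog Abcb1b, so its count is uncertain, and Gm42686 on the other strand overlaps 553 of its exonic bases.

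The remaining carriers, Slc7a5, Slco1c1 and Slco1a4, differed in mean FPKM by less than the SD of either group. Slc7a5, the LAT1 subunit that brings in large neutral amino acids, had 16.3, 18.7 and 20.1 FPKM in Cre-labelled libraries, against 18.6, 18.8 and 20.03 FPKM in GFP-labelled ones. Slco1c1, which carries thyroxine, averaged 4.26 ± 0.521 FPKM in Cre-labelled libraries and 4.09 ± 0.517 FPKM in GFP-labelled ones (SD, n = 3 each). Slco1a4, a carrier of organic anions such as bile acids and steroid conjugates, averaged 4.62 ± 0.603 FPKM with Cre labels and 4.33 ± 0.882 FPKM with GFP labels (SD, n = 3 each). Bsg, or basigin, which escorts lactate transporters to the membrane and is made by many cells, was the most abundant member per length at 148 to 161 FPKM in Cre-labelled libraries and 135 to 156 FPKM in GFP-labelled ones. The groups overlapped in each of these 4 genes, with adjusted p-values of 0.643 to 0.949 in edgeR.

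Receptors and ligands of vessel growth had the lowest median of the roles, -0.054 in log2, with 2 of 7 above 0. Kdr (VEGFR2), the main receptor of VEGF-A, had 0.770, 0.729 and 1.31 FPKM in Cre-labelled libraries, against 0.947, 0.876 and 1.09 FPKM in GFP-labelled ones. Flt1 (VEGFR1), which binds VEGF and limits its access to Kdr, had 3.14, 3.53 and 4.35 FPKM in Cre-labelled libraries and 3.60, 3.46 and 4.005 FPKM in GFP-labelled ones. In both genes Cre-labelled library 1 was below, and library 3 above, every GFP-labelled library.

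Eng, or endoglin, a co-receptor for TGF-β family ligands, spread the same way, at 2.98, 3.70 and 5.14 FPKM in Cre-labelled libraries and 4.004, 4.35 and 4.44 FPKM in GFP-labelled ones. Its mean, 3.94 ± 1.10 FPKM with Cre labels and 4.27 ± 0.233 FPKM with GFP labels (SD, n = 3 each), hides a 1.73-fold range among the Cre-labelled libraries. Tek (TIE2), the angiopoietin receptor, averaged 2.58 ± 0.430 and Tie1, its partner, 1.86 ± 0.377 FPKM in Cre-labelled libraries, against 2.39 ± 0.314 and 1.88 ± 0.131 FPKM in GFP-labelled ones (SD, n = 3 each). Pdgfb, the ligand that holds pericytes to the vessel, averaged 2.58 ± 0.208 FPKM in Cre-labelled libraries and 2.73 ± 0.0753 FPKM in GFP-labelled ones (SD, n = 3 each). Egfl7, a secreted matrix protein of endothelial cells that hosts a microRNA, averaged 4.30 ± 0.656 FPKM with Cre labels and 4.01 ± 0.715 FPKM with GFP labels (SD, n = 3 each). Adjusted p-values of the 7 genes lay between 0.643 and 0.915 in edgeR.

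The 5 surface and secreted glycoproteins had the highest median difference of the roles, 0.56 in log2, with 4 of 5 above 0. Ly6a, or Sca-1, a lipid-anchored protein of endothelial and stem cells that interferons induce in mice, had the largest difference of all members. Its level was 8.64, 22.1 and 24.8 FPKM in Cre-labelled libraries, against 6.10, 6.70 and 8.68 FPKM in GFP-labelled ones. Cre-labelled libraries 2 and 3 were far above the other 4, and library 1 was within the GFP-labelled range, at about the value of GFP-labelled library 3. The log2 difference was 1.34 ± 0.36 (SE; edgeR adjusted p = 0.143), against 0.11 (edgeR adjusted p = 0.852) without the 3 libraries with transcripts of other organs and 0.23 with Cre-labelled library 1 alone.

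Without Cre-labelled library 1, Ly6a passed the threshold with a log2 difference of 1.69 (edgeR adjusted p = 0.00797; 0.341 at the other end of the 6 fits that leave out 1 library), in a fit that called 1.12% of genes higher and 0.234% lower. The 2 libraries that made this difference are those with kidney transcripts, at 698 and 758 CPM. Between Cre-labelled library 1 and library 2 Ly6a differed 2.56-fold, and between library 1 and library 3 it differed 2.88-fold, with both members of each pair carrying the same label. The part of kidney RNA in the Ly6a level was not tested.

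Ly6c1, a related lipid-anchored protein of brain capillaries, had 12.02, 13.99 and 16.4 FPKM in Cre-labelled libraries and 7.72, 9.73 and 10.6 FPKM in GFP-labelled ones. Its groups did not overlap, and the difference was 1.51-fold in mean FPKM and 0.56 ± 0.16 (SE) in log2, with an adjusted p of 0.149 in edgeR and 0.0152 in DESeq2. The log2 difference was 0.18 (edgeR adjusted p = 0.604) without the 3 libraries with transcripts of other organs and 0.32 with Cre-labelled library 1 alone. Both Ly6 genes lie in a cluster of near copies on chromosome 15, Ly6a (ENSMUSG00000075602) at 74994877 to 74998031 and Ly6c1 (ENSMUSG00000079018) at 75044018 to 75048830, both on the minus strand. Other genes share 31.9% of the 31-base words of Ly6a and 46.8% of those of Ly6c1, so reads may have been split between copies and both values are uncertain. Part of this sharing is between these members, as Ly6c1 holds 21.9% of the words of Ly6a and Ly6a 15.7% of those of Ly6c1. The nearest copy of Ly6c1, Ly6c2, had 0.532, 1.66 and 2.70 FPKM in Cre-labelled libraries, against 1.43, 0.723 and 0.711 FPKM in GFP-labelled ones, so it was low beside Ly6c1 in every library. A further 3 neighbours with few reads, Ly6a2, Ly6g and Ly6i, were also highest in Cre-labelled libraries 2 and 3. Ly6a2 had 0.565, 2.10 and 2.39 FPKM in Cre-labelled libraries, against 1.49, 0.553 and 0.564 FPKM in GFP-labelled ones. Ly6g had 0.153, 0.768 and 1.17 FPKM in Cre-labelled libraries and 0.183, 0.333 and 0.241 FPKM in GFP-labelled ones, and Ly6i had at most 9 counts in any library. By contrast Ly6e, a widely expressed gene of the cluster, had 23.0, 26.7 and 24.8 FPKM in Cre-labelled libraries and 25.9, 27.8 and 28.2 FPKM in GFP-labelled ones.

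The Ly6c1 promoter is shown as the third that DESeq2 placed past the threshold, with capitals as above.
Ly6c1, chr15:75048838-75049087, minus strand: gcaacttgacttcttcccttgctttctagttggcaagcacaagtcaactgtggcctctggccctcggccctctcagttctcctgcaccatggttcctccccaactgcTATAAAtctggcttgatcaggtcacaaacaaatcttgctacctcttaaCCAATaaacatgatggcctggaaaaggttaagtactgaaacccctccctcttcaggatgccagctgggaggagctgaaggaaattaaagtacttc
It held the letters TATAAA from 143 to 138 bases and CCAAT from 95 to 91 bases before the RefSeq start, motifs that 12.4% and 33.8% of promoters hold. These are matches of letters, and whether either acts as a promoter element for this start was not tested. Of 2 RefSeq starts, the first listed was used. Neither TTCNNNGAA, found in 7.02% of promoters, nor the interferon-stimulated response element, found in 2.98%, was in this window. RefSeq promoters were matched for 22 of the 36 members.

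**Figure D2:**
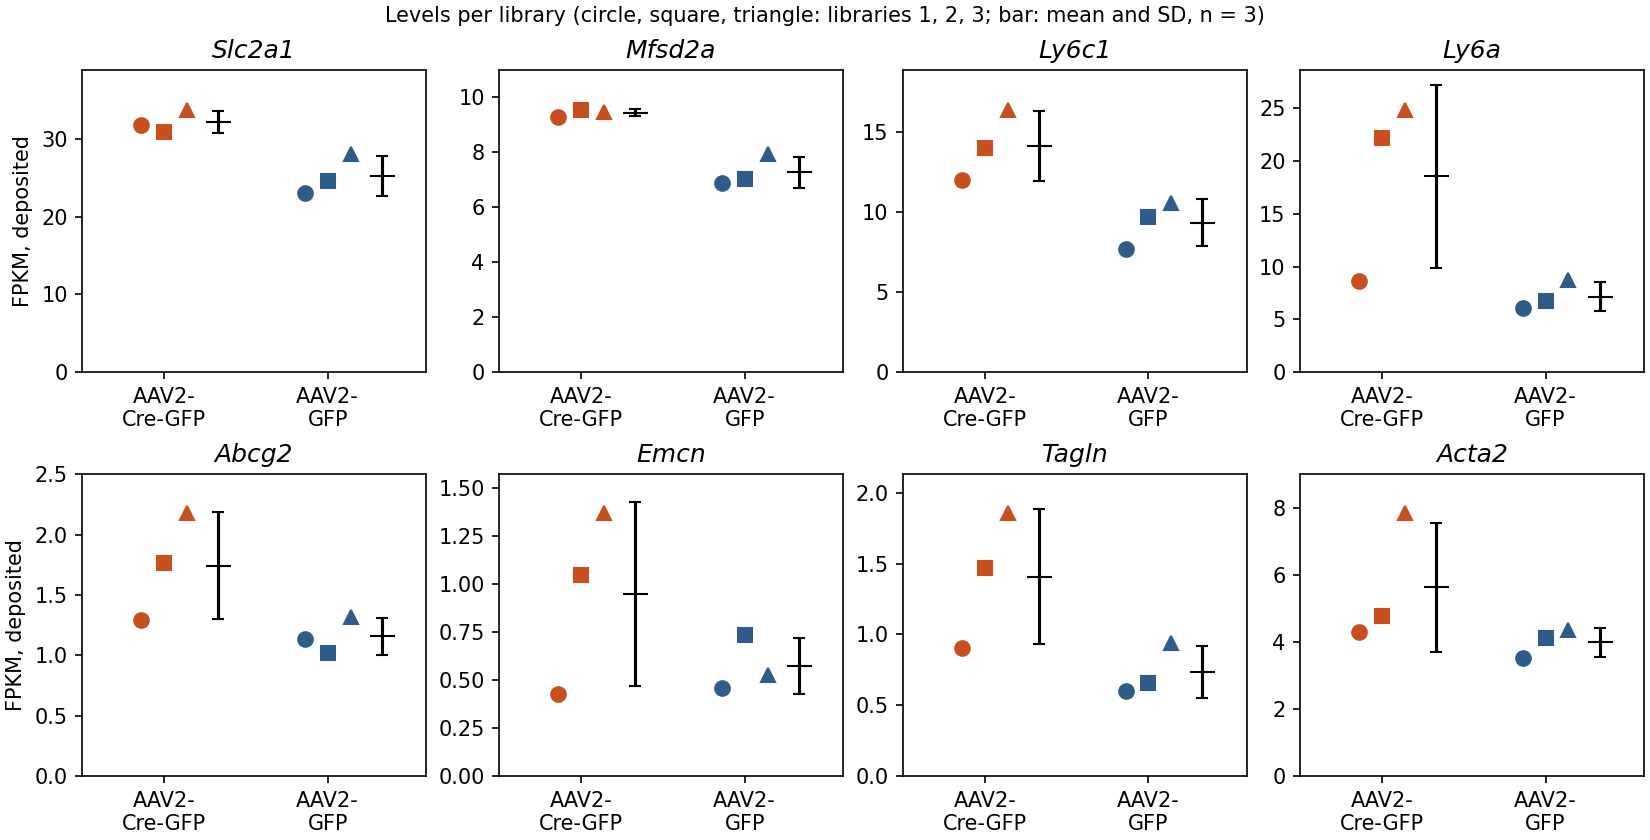
FPKM of members named in the text in each library, Cre-labelled libraries left of GFP-labelled ones, with bars at the group means (n = 3). Slc2a1, Mfsd2a and Ly6c1 do not overlap between groups, whereas Ly6a is at 22.1 and 24.8 FPKM in Cre-labelled libraries 2 and 3 and at 8.64 FPKM in library 1.

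Itm2a, a membrane protein found in brain endothelium, had 17.6, 18.03 and 16.95 FPKM in Cre-labelled libraries, against 13.8, 15.0 and 16.4 FPKM in GFP-labelled ones. The groups were apart, by a log2 difference of 0.18 ± 0.086 (SE; edgeR adjusted p = 0.344), or 0.10 without the 3 libraries with transcripts of other organs. Emcn, endomucin, a sialomucin of capillary and venous surfaces, had 0.427, 1.05 and 1.37 FPKM in Cre-labelled libraries and 0.459, 0.735 and 0.525 FPKM in GFP-labelled ones. Libraries 2 and 3 of the Cre-labelled group were above all GFP-labelled ones, while library 1 was the lowest of the 6. Vwf, the clotting factor stored in endothelial granules, was ordered like the growth factor receptors, with 0.546, 0.899 and 1.28 FPKM in Cre-labelled libraries and 0.836, 0.896 and 0.974 FPKM in GFP-labelled ones. Between libraries 1 and 3 of the Cre-labelled group Emcn differed 3.20-fold and Vwf 2.34-fold, more than the 1.601-fold and 1.17-fold range of the GFP-labelled libraries.

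The SOXF transcription factors, which specify endothelial and above all arterial identity, were low and both above 0 in log2. Sox18 had 2.12, 1.87 and 1.89 FPKM in Cre-labelled libraries, against 1.41, 1.70 and 1.504 FPKM in GFP-labelled ones, and these groups did not overlap (log2 difference 0.31 ± 0.20, SE; edgeR adjusted p = 0.480). Sox17 had 0.833, 1.25 and 0.946 FPKM in Cre-labelled libraries and 0.947, 0.611 and 0.631 FPKM in GFP-labelled ones, with overlap. Its count is uncertain, since Gm37587 on the other strand covers 804 of its exonic bases.

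Of the 5 pericyte genes, 4 were above 0 in log2 with a median of 0.035, and the exception was Pdgfrb, the receptor through which pericytes are recruited. It had 4.47, 4.69 and 5.09 FPKM in Cre-labelled libraries, against 4.72, 5.37 and 6.05 FPKM in GFP-labelled ones. Cre-labelled libraries 1 and 2 were below every GFP-labelled library and library 3 was not, and the log2 difference was -0.22 ± 0.11 (SE; edgeR adjusted p = 0.360). Leaving out each library in turn kept it between -0.30 and -0.12. Of all members this was the lowest log2 difference.

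Rgs5, a regulator of G protein signalling that marks pericytes and smooth muscle, had 10.3, 13.0 and 14.4 FPKM in Cre-labelled libraries and 9.16, 9.47 and 12.3 FPKM in GFP-labelled ones, overlapping. Vtn, vitronectin, which brain pericytes secrete and through which they restrain vesicle transport in the endothelium, averaged 23.2 ± 1.603 FPKM in Cre-labelled libraries and 22.0 ± 1.82 FPKM in GFP-labelled ones (SD, n = 3 each). Abcc9, the SUR2 subunit of a potassium channel, averaged 1.28 ± 0.0747 FPKM with Cre labels and 1.23 ± 0.175 FPKM with GFP labels (SD, n = 3 each). Higd1b, a small mitochondrial protein used as a pericyte marker, rested on 63 to 154 counts a library and averaged 2.68 ± 0.686 FPKM with Cre labels, against 2.06 ± 0.603 FPKM with GFP labels (SD, n = 3 each). The 95% intervals of the log2 difference were -0.17 to 0.24 for Vtn and -0.31 to 0.35 for Abcc9, the narrowest of the mural genes above 0, and -0.40 to 1.09 for Higd1b.

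The 3 contractile genes of arteriolar smooth muscle were all above 0 in log2, with a median of 0.46. Tagln, the actin-binding protein SM22, had 0.904, 1.47 and 1.86 FPKM in Cre-labelled libraries, against 0.599, 0.656 and 0.942 FPKM in GFP-labelled ones. Acta2, smooth muscle actin, had 4.28, 4.76 and 7.83 FPKM in Cre-labelled libraries and 3.50, 4.13 and 4.34 FPKM in GFP-labelled ones. Myh11, smooth muscle myosin, had 0.857, 1.12 and 1.59 FPKM in Cre-labelled libraries and 0.634, 0.868 and 1.10 FPKM in GFP-labelled ones. In all 3 genes Cre-labelled library 3 was the highest of the 6, and Cre-labelled library 1 was the lowest of its group and below GFP-labelled library 3.

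The largest log2 difference of the 3 was that of Tagln, at 0.90 ± 0.34 (SE; edgeR adjusted p = 0.242), on 61 to 235 counts. It was 0.11 (edgeR adjusted p = 0.923) without the 3 libraries with transcripts of other organs and 0.26 with Cre-labelled library 1 alone. Its count is uncertain, since Gm48529 on the other strand overlaps 1241 of its 1988 exonic bases. Acta2 differed by 0.46 ± 0.24 (SE; edgeR adjusted p = 0.368) and by 0.16 without Cre-labelled library 3, the library in which the skeletal muscle list summed to 213 CPM.

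Within each group the members kept a common order of libraries. Cre-labelled library 1 was the lowest of its group in 20 of 28 endothelial and 7 of 8 mural members, against 31.7% of all tested genes. Cre-labelled library 3 was the highest of its group in 19 endothelial and 6 mural members, against 32.3% of all genes. GFP-labelled library 3 was the highest of its group in 22 endothelial and 6 mural members, against 32.3% of all genes. Members were measured in the same libraries and varied together, so these 36 genes are not 36 separate observations. The cause of the common order was not tested.

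Set against the GFP-labelled libraries one at a time, the Cre-labelled libraries differed from each other. Library 3 was above all 3 GFP-labelled libraries in 24 of 28 endothelial members, library 2 in 16 and library 1 in 7, against 32.9%, 31.2% and 35.8% of all genes. Library 1, the Cre-labelled one low in the lists of other organs, was below all 3 GFP-labelled libraries in 8 endothelial members, Slc7a5, Flt1, Kdr, Tie1, Eng, Pdgfb, Emcn and Vwf, and in the mural Pdgfrb, against 24.2% of all genes. The 7 endothelial members in which it was above all of them were those whose groups did not overlap, and 0 mural members were. Of the 7 growth factor receptors and ligands, 5 were thus below every GFP-labelled library in library 1 and 0 above.

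Other genes of the vessel wall, 146 in 8 lists, were examined beside the members, and 144 were tested. In edgeR 0 of the 144 passed the threshold, with 20 (13.9%) higher and 6 (4.17%) lower at an unadjusted p under 0.05, against 8.11% and 9.11% of all tested genes. DESeq2 placed 7 (4.86%) higher and 4 (2.78%) lower past it, against 2.86% and 4.22% of all genes. Those shares of all genes again count the 4561 genes without a DESeq2 adjusted p as not called. The 17 genes of Wnt and norrin signalling, which induces the barrier, had a median log2 difference of 0.055. Ctnnb1, β-catenin, the effector of that pathway and a junction protein of all cells, had 79.5, 88.6 and 86.8 FPKM in Cre-labelled libraries, against 71.8, 77.4 and 71.7 FPKM in GFP-labelled ones (log2 difference 0.17 ± 0.067, SE; edgeR adjusted p = 0.254). Wnt7b, a ligand made by neural cells, had 6.45, 5.67 and 5.74 FPKM in Cre-labelled libraries and 6.33, 6.58 and 6.94 FPKM in GFP-labelled ones.

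Among 24 ligands and receptors of vessel growth and mural recruitment, 9 were above 0 in log2 and 15 below, with a median of -0.053. S1pr1, a sphingosine phosphate receptor that tightens endothelial junctions and is also made by astrocytes, had 29.9, 31.3 and 33.01 FPKM in Cre-labelled libraries and 24.8, 26.0 and 25.3 FPKM in GFP-labelled ones. Pgf, placental growth factor, a ligand of Flt1, was lower, with 1.58, 1.54 and 2.16 FPKM in Cre-labelled libraries, against 2.73, 3.07 and 2.38 FPKM in GFP-labelled ones. In both genes the groups were apart, by log2 differences of 0.27 ± 0.060 (SE; adjusted p = 0.103 in edgeR and 0.00411 in DESeq2) and -0.66 ± 0.19 (SE; adjusted p = 0.158 in edgeR and 0.0314 in DESeq2). Without Cre-labelled library 1, S1pr1 passed edgeR's threshold with a log2 difference of 0.33 (adjusted p = 0.0488; 0.301 at the other end of the 6 fits that leave out 1 library). Its log2 difference was 0.17 without the 3 libraries with transcripts of other organs.

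The 37 further endothelial markers had a median log2 difference of 0.10, with 24 above 0. Tfrc, the transferrin receptor by which capillaries and neurons take up iron, had 8.07, 9.36 and 8.42 FPKM in Cre-labelled libraries, against 10.6, 11.2 and 10.05 FPKM in GFP-labelled ones (log2 difference -0.34 ± 0.081, SE; adjusted p = 0.116 in edgeR and 0.00608 in DESeq2). Spock2, a secreted proteoglycan that neurons also make, had 198, 211 and 226 FPKM in Cre-labelled libraries and 241, 249 and 252 FPKM in GFP-labelled ones (log2 difference -0.26 ± 0.068, SE; adjusted p = 0.135 in edgeR and 0.00197 in DESeq2). Both were apart in the direction opposite to Slc2a1 and Mfsd2a.

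Of 13 tested arterial and venous markers, 9 were above 0. Ackr1, the chemokine-binding receptor of venules, had 9.78, 11.3 and 9.88 FPKM in Cre-labelled libraries, against 14.3, 13.2 and 13.2 FPKM in GFP-labelled ones (log2 difference -0.43 ± 0.10, SE; adjusted p = 0.111 in edgeR and 0.0123 in DESeq2). Mgp, matrix Gla protein, which keeps arterial walls free of calcium, had 2.54, 3.30 and 4.13 FPKM in Cre-labelled libraries and 1.16, 1.87 and 1.80 FPKM in GFP-labelled ones (log2 difference 1.00 ± 0.29, SE; adjusted p = 0.156 in edgeR and 0.0293 in DESeq2). The Mgp difference was 0.41 (edgeR adjusted p = 0.578) without the 3 libraries with transcripts of other organs and 0.61 with Cre-labelled library 1 alone, and that of Ackr1 was -0.49 and -0.51. Both genes were apart between groups, Ackr1 lower and Mgp higher in Cre-labelled libraries. Named for the 2 smallest p-values of the list, they do not stand for venous or arterial markers as a set. Among 3 markers of leaky, fenestrated vessels, Plvap, the diaphragm protein of their pores, overlapped at 2.16, 3.44 and 3.95 FPKM in Cre-labelled libraries and 3.75, 3.63 and 3.32 FPKM in GFP-labelled ones. Igfbp3, a binding protein of insulin-like growth factors, had 2.60, 2.20 and 2.68 FPKM in Cre-labelled libraries, against 1.96, 1.79 and 2.20 FPKM in GFP-labelled ones.

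In the wider mural list of 23 genes, 13 were above 0, with a median of 0.081. Tpm2, a tropomyosin of smooth and skeletal muscle, had 1.02, 1.02 and 3.68 FPKM in Cre-labelled libraries, against 0.831, 0.542 and 0.499 FPKM in GFP-labelled ones, so library 3, with its 213 CPM of skeletal muscle genes, was far above the other 5 (log2 difference 1.56 ± 0.53, SE; adjusted p = 0.203 in edgeR and 0.0226 in DESeq2). Without that library the log2 difference was 0.67. Atp13a5, a P-type ATPase that marks brain pericytes, had 3.68, 3.63 and 3.46 FPKM in Cre-labelled libraries and 3.07, 2.91 and 2.92 FPKM in GFP-labelled ones. Its groups were apart with the libraries of each close together (log2 difference 0.24 ± 0.087, SE; edgeR adjusted p = 0.227), and library 1 was the highest of its group.

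The 15 perivascular fibroblast markers had a median of 0.34. Dcn, decorin, a collagen-binding proteoglycan of these cells, had 1.93, 1.79 and 2.05 FPKM in Cre-labelled libraries, against 1.25, 1.19 and 1.32 FPKM in GFP-labelled ones, with groups apart (log2 difference 0.58 ± 0.13, SE; adjusted p = 0.0995 in edgeR and 0.00439 in DESeq2). Slc47a1, an exporter of organic cations in fibroblasts and in kidney tubules, had 0.230, 2.86 and 3.32 FPKM in Cre-labelled libraries and 0.351, 0.239 and 0.135 FPKM in GFP-labelled ones. Its level was high in the same libraries as the kidney list, at 12.4 and 14.4 times that of library 1 (adjusted p = 0.145 in edgeR and 0.0317 in DESeq2; edgeR adjusted p = 0.011 without Cre-labelled library 1). Of 12 basement membrane genes 7 were above 0: Sparcl1, a matricellular protein mostly of astrocytes, had 945, 918 and 889 FPKM in Cre-labelled libraries, against 809, 802 and 772 FPKM in GFP-labelled ones (adjusted p = 0.171 in edgeR and 0.00460 in DESeq2). Col4a2, a chain of the sheet-forming collagen, had 14.1, 13.7 and 17.3 FPKM in Cre-labelled libraries and 13.9, 18.1 and 19.7 FPKM in GFP-labelled ones. Its groups overlapped, with a log2 difference of -0.24 ± 0.14 (SE; edgeR adjusted p = 0.433). Over the alternative fits that difference lay between -0.48 and -0.13.

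**Figure D3:**
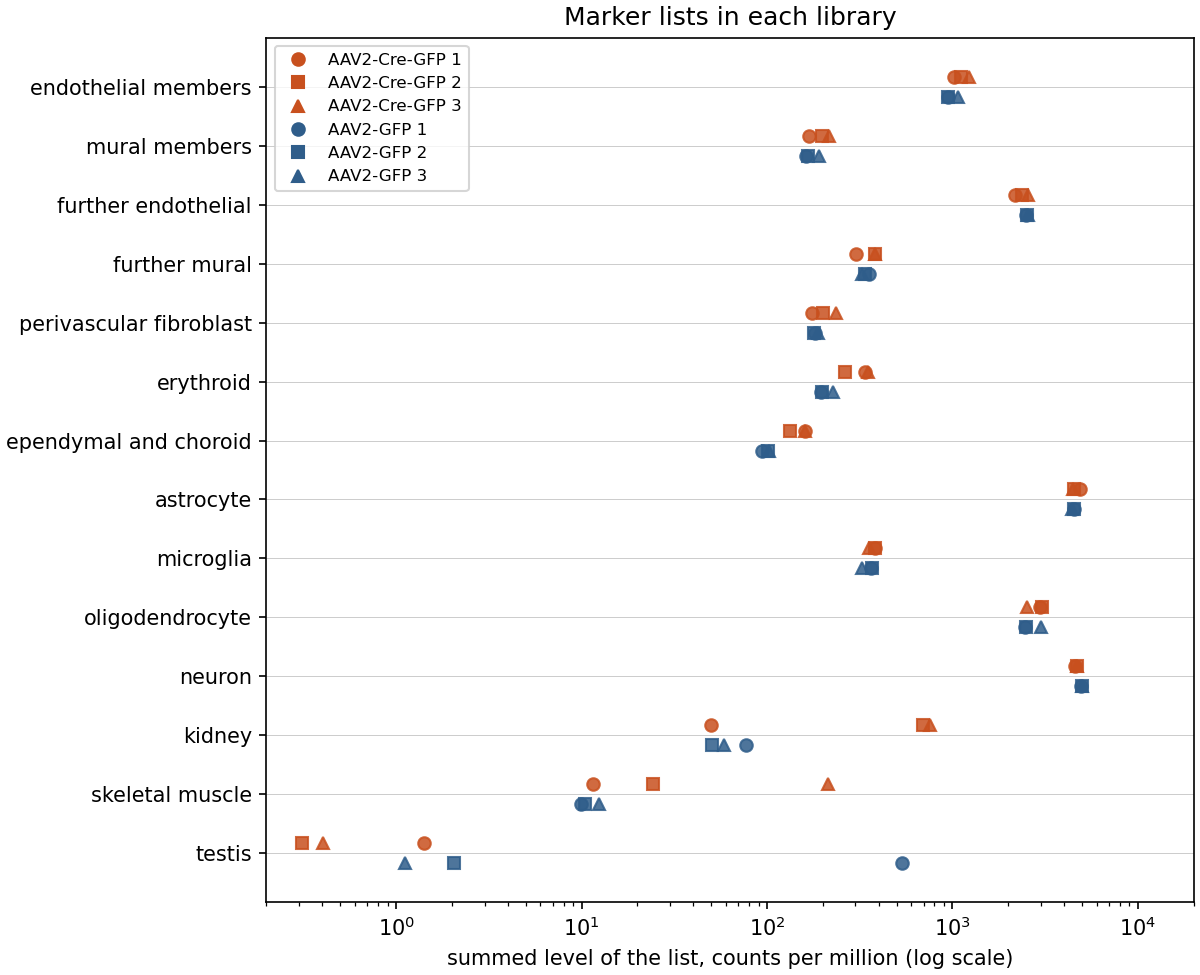
Summed level of each marker list in each library in CPM (log axis), Cre-labelled libraries above GFP-labelled ones. Kidney genes reach 698 and 758 CPM in Cre-labelled libraries 2 and 3, skeletal muscle genes 213 CPM in Cre-labelled library 3 and testis genes 531 CPM in GFP-labelled library 1.

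Lists of other cell types were set beside the members for the same reason. Erythroid genes, a measure of blood left in the vessels, summed to 336, 262 and 351 CPM in Cre-labelled libraries, against 196, 198 and 226 CPM in GFP-labelled ones, without overlap. Ependymal and choroid plexus genes summed to 161, 132 and 159 CPM in Cre-labelled libraries and to 94.3, 102 and 103 CPM in GFP-labelled ones, also apart, and Slc2a1 and Bsg are made by the choroid plexus too. Neuron markers summed to 4570, 4700 and 4679 CPM in Cre-labelled libraries, against 4918, 4985 and 5012 CPM in GFP-labelled ones, lower in all 3. Astrocyte, microglia and oligodendrocyte lists overlapped between the groups, and no list had a gene at 0 in all 6 libraries. Whether blood, choroid plexus or the neuronal share had a part in the values of the members was not tested.

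**Figure D4:**
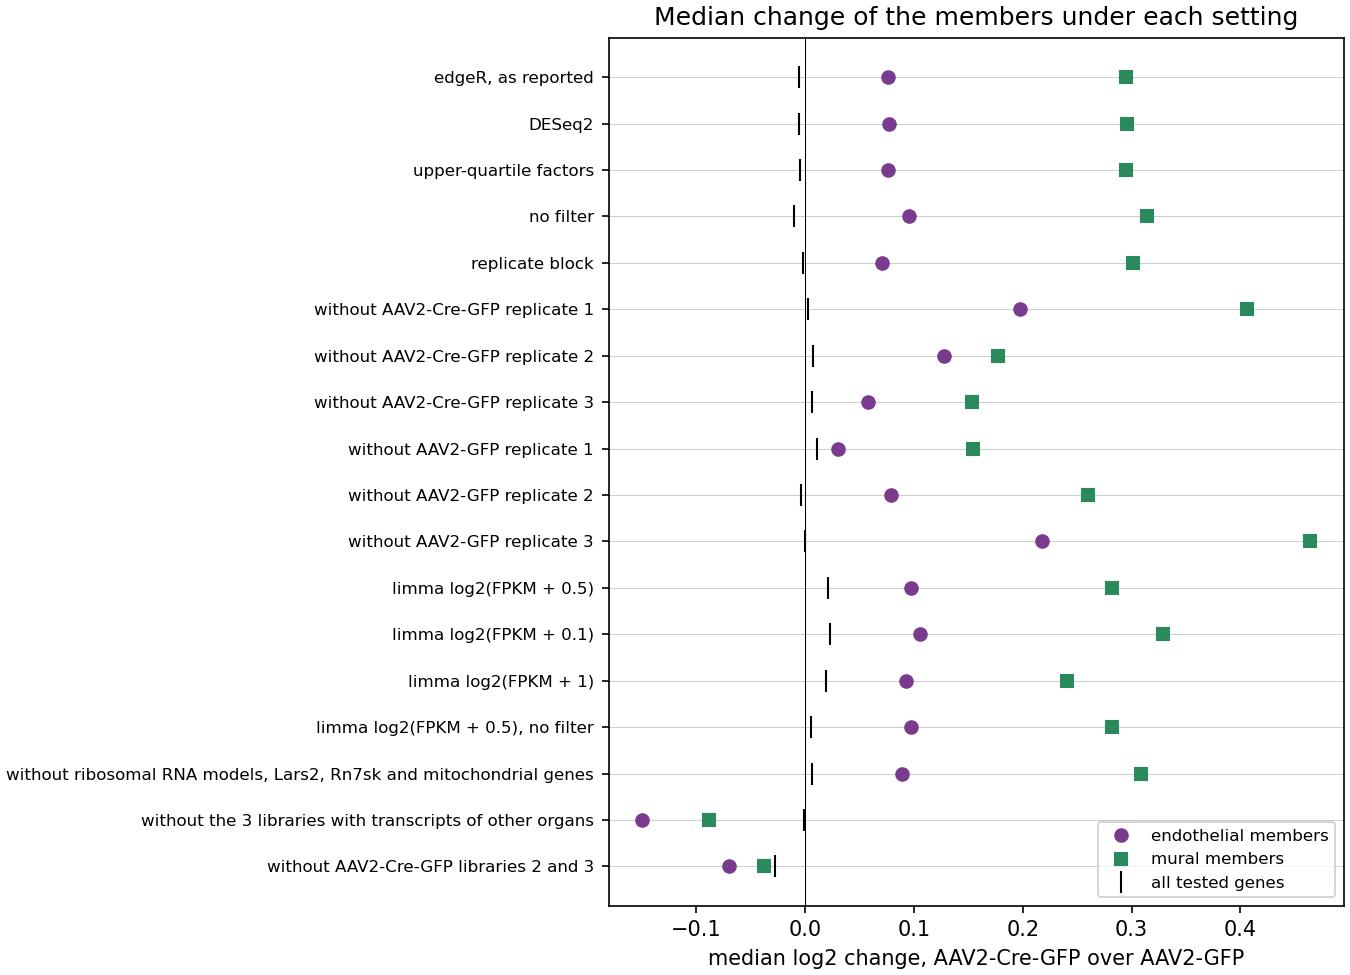
Median log2 difference of the 28 endothelial and 8 mural members under each setting of the fit, Cre-labelled over GFP-labelled. Both medians are above 0 in the pooled fit, at 0.076 and 0.30, and below 0 without the 3 libraries that held transcripts of other organs, at -0.15 and -0.088. The SD between libraries of a group, in the mean log2 level of the members, is 0.18 for the endothelial and 0.23 for the mural members.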

How the data were processed

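Stranded poly(A) libraries with dUTP marking and molecular identifiers were sequenced as read pairs, per the labels' protocols. The submitters' processing notes list the tools cutadapt, HISAT2 and StringTie. Not given in the sources used here are their versions, the counting step and any use of identifiers or strand in it. The notes name build mm9, but 32009 of 35024 shared genes (91.4%) have the start and end of GENCODE M21 (GRCm38), so coordinates are given as GRCm38. The counts deposited by the authors are whole reads per gene without normalization. The authors' FPKM values, also deposited, are close to these counts per gene length and library depth.

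The members and lists were chosen with earlier results of these data known, so no list was tested. EdgeR 4.0.16's two-sided quasi-likelihood test (R 4.3.3, TMM, filterByExpr minimum count 10, no covariates) was fitted to all 20865 genes and adjusted by Benjamini-Hochberg, threshold 0.05. Values by library are FPKM; summed lists are CPM of deposited totals. No 2 libraries agreed within sampling noise (chi-square per gene at least 11.4). Named list genes are those with the 2 smallest p-values in each vascular list; neighbours of the Ly6 genes and Oxt were named after their values were seen. Shared 31-base words were counted in GENCODE M21 transcripts, and promoters were read from RefSeq.

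Alternatives were DESeq2 1.42.0, upper-quartile factors, no filter, each library left out, a block for the replicate number, limma 3.58.1 on log2(FPKM + 0.5) for genes averaging 1 FPKM or more, the same with pseudocounts of 0.1 and 1 or no filter, removal of ribosomal and mitochondrial genes, and removal of the 3 libraries with transcripts of other organs. Removal of Cre-labelled libraries 2 and 3 was added after seeing the data. The tests were tested on simulated data.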

Additional observations from a re-analysis of the deposited data

How the results depend on the processing

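Members past the threshold numbered 0 in edgeR, 3 in DESeq2, 2 without the 3 libraries with transcripts of other organs, and 0 to 1 with each library left out in turn. List genes past it numbered 0 in edgeR, 11 in DESeq2, 9 without those 3 libraries, and 0 to 3 with each library left out. Over all genes edgeR called 2, DESeq2 1478, the fit without those 3 libraries 1059, and the fit without Cre-labelled library 1 296. The endothelial median lay between 0.030 and 0.22 with each library left out and was -0.15 without the 3 libraries. The mural median lay between 0.15 and 0.46, and was -0.088 without the 3 libraries and -0.037 without Cre-labelled libraries 2 and 3.

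Log2 differences that changed sign without the 3 libraries were Cdh5 -0.13, Esam -0.27, Pecam1 -0.081, Slco1a4 -0.23, Slco1c1 -0.17, Abcb1a -0.25, Bsg -0.0078, Tek -0.28, Egfl7 -0.012, Emcn -0.60, Rgs5 -0.14, Abcc9 -0.19, Acta2 -0.037 and Myh11 -0.26. Without Cre-labelled libraries 2 and 3 they were Cdh5 -0.063, Esam -0.22, Pecam1 -0.020, Slco1a4 -0.077, Slco1c1 -0.16, Abcb1a -0.17, Tek -0.17, Emcn -0.46, Rgs5 -0.046, Abcc9 -0.072, Vtn -0.029, Myh11 -0.064 and Slc47a1 -0.11. With each library left out in turn, signs changed within these ranges: Ruvbl2 -0.029 to 0.18, Esam -0.11 to 0.28, Slc7a5 -0.15 to 0.0057, Slco1a4 -0.087 to 0.22, Slco1c1 -0.069 to 0.13, Abcb1a -0.034 to 0.21, Flt1 -0.17 to 0.078, Kdr -0.40 to 0.070, Tek -0.049 to 0.20, Tie1 -0.15 to 0.12, Eng -0.38 to 0.032, Egfl7 -0.038 to 0.22, Vwf -0.34 to 0.25, Abcc9 -0.083 to 0.12, Vtn -0.021 to 0.10 and Plvap -0.37 to 0.035. The cause was not tested. In these fits 1 remaining library is assumed to vary like the others.

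With the replicate number as a block, 0 members and 3 genes in all passed the threshold and the medians were 0.071 and 0.30; same-numbered libraries did not deviate together (correlations -0.044, 0.012 and -0.022), so the numbers were not taken as pairs. The other scalings, filters and pseudocounts changed no sign or call of a named gene. Depth limits most the genes with few counts, Higd1b, Tagln, Sox18, Mgp and Slc47a1 among them.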
